A study of Rattus norvegicus with 35 samples.

Results

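The experiment compared primary rat hepatocytes exposed to the triazole fungicide propiconazole at 100 uM with hepatocytes exposed to the vehicle dimethyl sulfoxide (DMSO) alone. It took the arrays whose titles name propiconazole at 100 uM (3) and those whose titles name DMSO (3), 6 of the 35 arrays of the series, and set them against each other within the code in each title (Rs256, Rs293 or Rs304). Each group held 1 array per code; what the code marks is not stated. Cells of every group were exposed through the medium for 72 h, and the design text gives DMSO at 0.1%, written 0.001 in the titles. The other groups compared here were propiconazole at 10 and 30 uM and the triazoles myclobutanil and triadimefon at 100 uM, with 3 arrays each. The fit drew its spread and code effects from all 35 arrays. These also held myclobutanil and triadimefon at 10 and 30 uM, phenobarbital at 200 uM and PCN at 30 uM, which had no Rs256 array. The design text calls the arrays of a group biological replicates. Nothing says whether they came from separate animals or cultures, so p-values measure the spread between these arrays.

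Triazole fungicides block fungal Cyp51, a sterol demethylase that mammals also carry, and several of them bind nuclear receptors and cytochrome P450 enzymes of the liver. Hepatocytes make most plasma proteins and bile acids, break down amino acids, store glucose as glycogen and clear drugs by oxidation, conjugation and export. Targets of PPARalpha, sterol synthesis and NRF2 formed lists that were set aside. At an adjusted p under 0.05, 39 of 48 PPARalpha targets fell and 2 rose, 17 of 24 sterol genes rose and 2 fell, and 18 of 33 NRF2 targets rose and 0 fell, where 29.3% of all genes tested were called (15.7% risen, 13.7% fallen). The results below concern the remaining pathways, the probe sets with no gene name and the liver functions. Genes set aside were not removed from other lists that hold them. Vnn1, Creb3l3, Gstp1, Hmox1 and Nqo1 are among those counted again below, so such counts are not independent of the lists set aside. Genes set aside also appear in the comparisons by dose and compound, Gstp1, Creb3l3 and Cyp4a3 among them.

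Values are quantile normalized scores on a log-like scale whose base is not stated, and a change is propiconazole minus DMSO in these score units, not a fold. The deposited medians of the 6 arrays lay between -0.018 and -0.0034 and their SDs between 0.672 and 0.715. Over all genes tested, 5% of changes lay below -0.292 and 5% above 0.253, which is the scale against which a change can be read. The hepatocyte label was checked first: 20 of 23 hepatocyte markers lay above the array median in all 6 arrays, Alb, Ttr and Apoa1 among them. Endothelial markers had 2 of 13 members above it in all 6 arrays and 11 in none, and macrophage markers 3 and 8 of 14. Stellate markers had 4 of 18 members above the median in all 6 arrays and 7 in none, and cholangiocyte markers 2 and 4 of 9. The hepatocyte marker level, taken as the mean over the list, was 2.6 to 2.77 with propiconazole and 2.76 to 2.89 in DMSO; 11 of its members fell and 2 rose. Alb, the brightest, is fixed at 1 value by the normalization and was not measured. In a bulk culture fewer cells of a type and less RNA per cell cannot be told apart. The 3' minus 5' difference of the Actb control, a sign of RNA integrity, was 0.577, 0.562 and 0.66 with propiconazole and 0.815, 0.663 and 0.694 in DMSO (difference -0.124, two-sided exact permutation p of 0.1, the smallest that 3 against 3 arrays can give). That of Gapdh differed by -0.0144 (exact permutation p of 0.8). Its part in the results below was not tested.

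Propiconazole at 100 uM changed 3078 of 10490 genes tested (29.3%): 1646 rose (15.7%) and 1432 fell (13.7%), at an adjusted p under 0.05 from limma with the Rs code as a block. Most of these changes were small, with a median size of 0.21 among called genes and a median of 0.0065 over all genes. Large changes were more often falls: 178 called genes fell by more than 0.5 and 95 rose by more than 0.5. Of the called genes 2958 moved the same way in all 3 codes, and 2792 of all genes tested (26.6%) had groups that did not overlap. The fit without the block called 1255 genes, and the fit on the values as deposited 1401. The fits without the arrays of Rs256, Rs293 or Rs304 called 2507, 2560 and 1534. A total of 629 genes (345 risen, 284 fallen) passed in the main analysis and in each of these 5 others, and genes of that kind are described below as held in all 6 fits. Any other gene named as risen or fallen lost its call in at least 1 of them.

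Gene lists for liver functions and stress pathways differed in how many members rose or fell. Outside the lists set aside and the cell type markers, the largest share of falls was in complement, where 17 of 23 members fell and 0 rose, followed by sulfation, hydrolysis and other conjugation (20 of 37 fell and 2 rose), peroxisomal proteins outside the PPARalpha list (19 of 40 fell and 3 rose) and bile acid genes (9 of 19 fell and 0 rose). The largest shares of rises were in AhR targets (4 of 7 and 0 fell), the lysosome (33 of 62 and 4 fell), tRNA synthetases (11 of 21 and 1 fell) and the ATF4 amino acid response (18 of 37 and 3 fell). The proteasome (21.4% risen, 11.9% fallen) and the circadian clock (11.1% and 16.7%) lay near the background. These lists share members and differ in size, and their counts were not tested against each other.

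**Figure D1:**
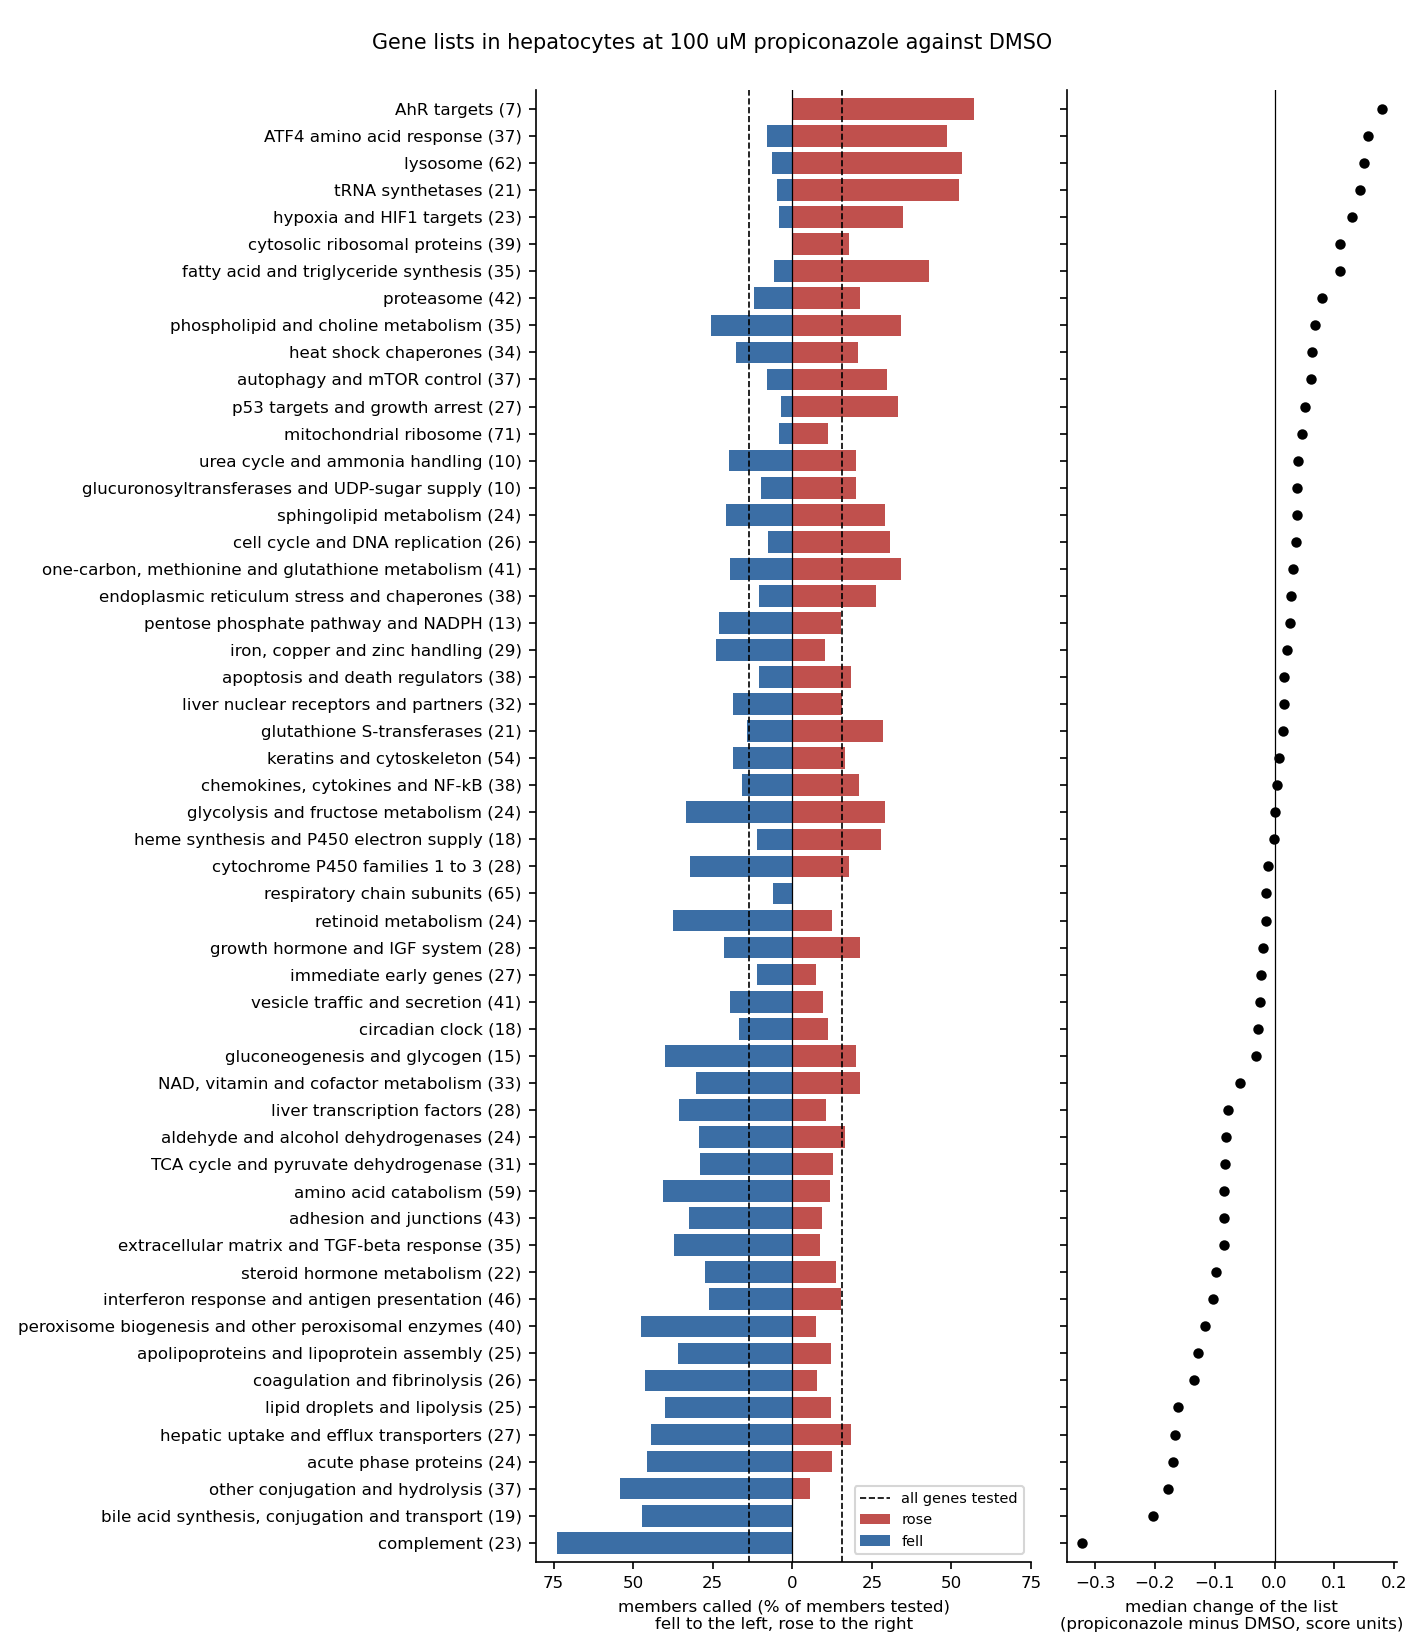
Gene lists at 100 uM propiconazole against DMSO. Bars give the percent of tested members that rose (red, to the right) or fell (blue, to the left), dashed lines the same over all 10490 genes tested (15.7% and 13.7%), and points the median change of the list in score units; the number of members tested stands in brackets. Complement lies at the low end with a median of -0.322, and AhR targets, the ATF4 response and the lysosome lie at the high end.

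Among genes outside the lists set aside, the largest rise was in Scd2, a fatty acid desaturase related to the main liver form Scd1. Its normalized scores were 0.59, 0.90 and 0.049 in DMSO and 2.51, 2.77 and 2.29 with propiconazole (in the order Rs256, Rs293, Rs304, as in all such triples), a rise of 2.01 (SE 0.185, adjusted p 1.79e-08). Every propiconazole array lay more than 1 unit above every DMSO array. Fabp5, the epidermal fatty acid binding protein, stood at 2.12, 1.89 and 1.89 in DMSO and at 3.53, 3.55 and 3.24 with propiconazole and rose by 1.47 (SE 0.118, adjusted p 1.76e-09). Sfn, the 14-3-3 sigma protein that holds cells at a division checkpoint, lay near the array median in DMSO (0.19, -0.037 and 0.039) and at 1.64, 1.15 and 1.45 with propiconazole. It rose by 1.35 (SE 0.0702, adjusted p 1.11e-12), so a transcript close to the middle of the array in control cells was well above it in all 3 treated arrays. Serpina3c and Serpina3l, protease inhibitors of the antichymotrypsin family, rose by 1.18 (SE 0.0773) and 1.003 (SE 0.0791); Serpina3c went from 0.47, -0.18 and -0.032 to 1.55, 1.06 and 1.20. Their family holds several close relatives, which a probe set may not separate. Another member, Serpina3m, fell by 0.39 (limma adjusted p 9.78e-05), and its call was lost without the block (adjusted p 0.428). The other genes of the 12 largest rises were the P450 Cyp2c6v1 (1.31), the glutathione transferase Gstk1 (1.28), Cox6a2, the muscle form of a cytochrome oxidase subunit (1.08), the syntenin Sdcbp2 (1.07), the nuclease Dnase2b (1.04), the efflux pump Abcc2 (0.95) and the AMP deaminase Ampd3 (0.95). All of the 12 but Dnase2b held in all 6 fits; for Dnase2b the adjusted p was 0.154 without the block, and its groups overlapped.

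The largest fall outside these lists was in Ces1d, a carboxylesterase of the endoplasmic reticulum that hydrolyses triglycerides and ester drugs. It stood at 1.77, 1.32 and 1.71 in DMSO and at -0.15, -0.16 and -0.077 with propiconazole. This fall of 1.73 (SE 0.202, adjusted p 5.35e-07) left it slightly below the array median in every treated array. Hrg, histidine-rich glycoprotein, an abundant plasma protein, went from 3.17, 2.81 and 2.19 to 1.73, 1.50 and 0.93 and fell by 1.34 (SE 0.125, adjusted p 2.17e-08). The 3 codes differed in level for Hrg, and the difference within a code was nearly the same in each. Ccn2, connective tissue growth factor, fell by 1.25 (SE 0.158, adjusted p 1.6e-06), from 2.84, 3.31 and 3.06 to 1.71, 1.85 and 1.91. Tm4sf4, a membrane protein with 4 membrane-spanning stretches that is abundant in liver, fell by 1.17, from 2.70, 3.39 and 3.08 to 1.43, 2.22 and 1.998. For both genes the highest treated array stayed below the lowest DMSO array. The remaining genes of the 12 largest falls were Slc27a2 (-1.39), Slc27a5 (-1.24), Baat (-1.19) and Cyp8b1 (-1.13) of bile acid metabolism, C4bpa (-1.12) of the complement system, the retinol dehydrogenase Rdh7 (-1.07), the matrix proteoglycan Omd (-1.14) and the collagen cross-linking enzyme Lox (-1.10). Omd, Cyp8b1 and Lox did not hold in all 6 fits: without the block their adjusted p was 0.139, 0.111 and 0.365.

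**Figure D2:**
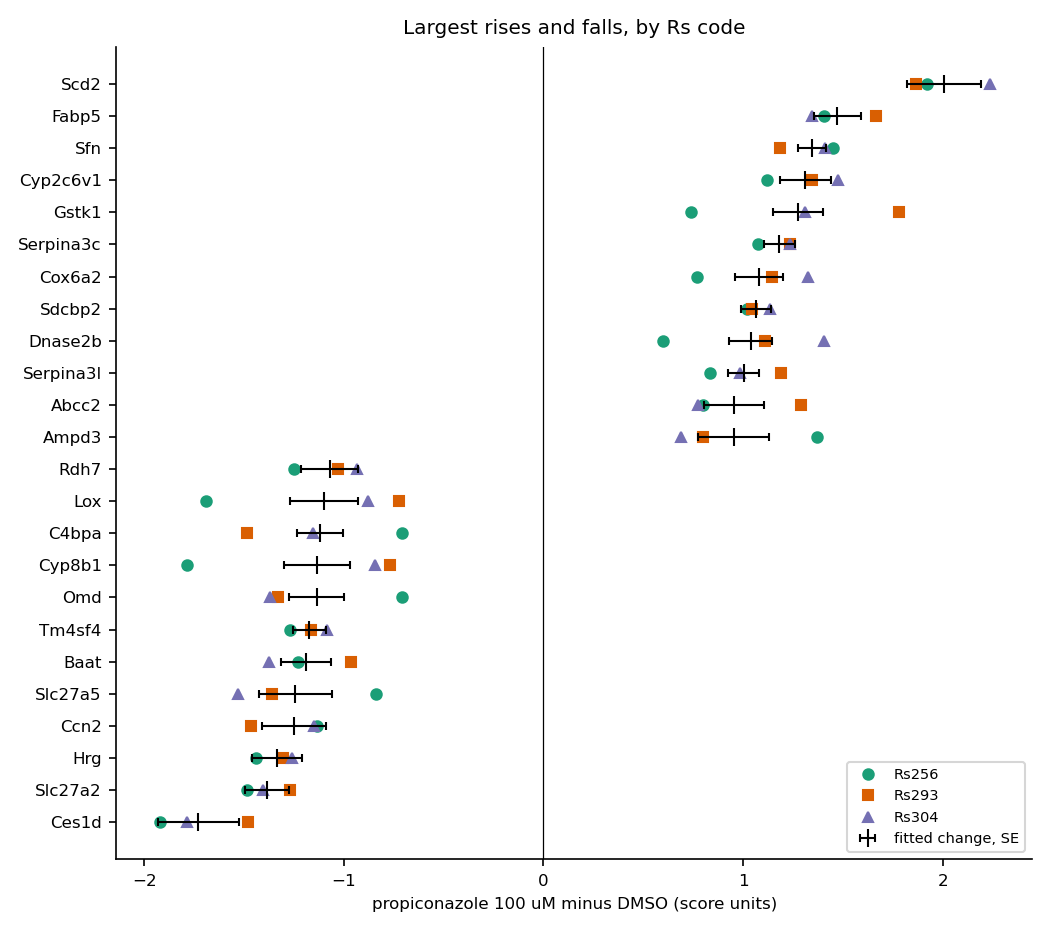
The 12 largest rises and 12 largest falls among genes outside the PPARalpha, sterol and NRF2 lists. The x axis gives propiconazole minus DMSO in score units, coloured points the difference within each Rs code and black ticks with bars the fitted change and its SE. Scd2 lies at 2.01 and Ces1d at -1.73; the points of Sdcbp2 and Tm4sf4 lie close together, and those of Cyp8b1, Lox and Gstk1 lie apart.

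Lysosomal genes rose in 33 of 62 cases tested and fell in 4. The lysosome is the acid compartment in which cells degrade proteins, sugar chains and lipids, and its genes share a regulatory element in many promoters, TCACGTGA, that the factors TFEB and TFE3 bind. The list median was 0.15, and 11 of the rises held in all 6 fits, among them Manba, Neu1, Mcoln1, Cd68 and the proton pump genes Atp6v1b2, Atp6v0a1 and Atp6v1c1. Manba, a mannosidase, stood at 1.05, 1.30 and 1.23 in DMSO and 1.63, 1.96 and 1.87 with propiconazole and rose by 0.63 (SE 0.0771, adjusted p 1.1e-06). Neu1, the lysosomal sialidase, rose by 0.55 (SE 0.0700, adjusted p 1.71e-06), from 0.63, 0.71 and 0.85 to 1.15, 1.28 and 1.41. In both genes all treated arrays lay above all DMSO arrays. Gpnmb, a membrane glycoprotein of lysosomes and melanosomes, rose by 0.91 (SE 0.0941) within the codes, from 0.85, 1.55 and 2.19 to 1.92, 2.62 and 2.76. The Rs304 DMSO array stood above the Rs256 treated array, and the call of Gpnmb was lost without the block (adjusted p 0.209). The proton pump that acidifies the compartment moved in part: Atp6v1b2, Atp6v1d, Atp6v0a1, Atp6v1c1, Atp6v1h, Atp6v0d1 and the accessory subunit Atp6ap2 rose by 0.40, 0.33, 0.30, 0.29, 0.23, 0.20 and 0.20. The members that fell were Ctsc (-0.22), Man2b1 (-0.21), Ctse (-0.14) and Glb1 (-0.11).

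Promoter sequences of these genes were read from RefSeq (assembly GRCr8), from 250 bases before to 50 after each start, to show where the element lies in genes that rose together. The genes and the element were picked for display after the values had been seen. A promoter was listed for 52 of the 62 members, 26 risen and 26 not. TCACGTGA, which reads the same on both strands, lay in 6 of 26 promoters of risen members (23.1%) and in 1 of 26 of the others (3.85%). It lay in 1.77% of 8760 promoters of all genes tested and in 0.867% of all 27457 rat promoters. Its inner CACGTG, which every TCACGTGA contains, lay in 34.6% of risen and 11.5% of other members, against 9.75% of genes tested and 6.65% of all promoters. The 6 matches among risen members are printed with 30 bases on either side, in the direction of transcription, with the element in capitals; Lamp1 holds it at 2 places.
Mcoln1, a calcium channel of the lysosome, chr12:6358231-6358298, plus strand: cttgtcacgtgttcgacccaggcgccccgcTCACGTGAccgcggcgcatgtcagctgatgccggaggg
Ctsd, cathepsin D, chr1:206968795-206968862, minus strand: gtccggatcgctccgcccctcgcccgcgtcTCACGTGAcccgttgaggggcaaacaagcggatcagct
Cln3, a lysosomal membrane protein, chr1:190597931-190597998, minus strand: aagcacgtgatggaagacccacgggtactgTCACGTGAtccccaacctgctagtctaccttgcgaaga
Atp6v0d1, a proton pump subunit, chr19:50357264-50357331, minus strand: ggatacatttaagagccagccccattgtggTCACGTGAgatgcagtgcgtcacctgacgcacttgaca
Lamp1, a major lysosomal membrane protein, chr16:83075065-83075159, minus strand: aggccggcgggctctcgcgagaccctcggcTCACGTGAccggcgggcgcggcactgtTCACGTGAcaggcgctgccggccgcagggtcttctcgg
Cd164, a sialomucin, chr20:46606301-46606368, plus strand: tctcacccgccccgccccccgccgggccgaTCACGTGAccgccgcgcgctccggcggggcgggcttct
These 6 genes rose by 0.30 (Mcoln1), 0.28 (Ctsd), 0.21 (Cln3), 0.20 (Atp6v0d1), 0.18 (Lamp1) and 0.17 (Cd164), so none of them was among the 4 largest lysosomal rises. A match describes the letters and says nothing of binding, and no match says that these letters are not in this window.

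Macrophages are rich in lysosomes, and their markers are given beside this result. Cd68, a lysosomal membrane protein used as a macrophage marker, rose by 0.80 (SE 0.0867, adjusted p 1.68e-07), from 0.34, -0.0086 and 0.18 to 1.02, 0.73 and 1.17, and held in all 6 fits. It was the only 1 of 6 tested macrophage markers to pass. The mean level of the 14 markers on the array was -0.0398 to 0.0609 with propiconazole and -0.0651 to 0.055 in DMSO, and the groups overlapped. Cd163, Adgre1, Tyrobp, Fcer1g, C1qa, C1qc, Ptprc and Itgam lay above the array median in 0 of the 6 arrays. Lyz2, Aif1 and C1qb lay above it in all 6, and Cd68 in 5. What macrophages contribute was not tested. Among autophagy genes, whose products deliver cargo to the lysosome, 11 of 37 rose and 3 fell, with a median of 0.0616. Rragd, a small GTPase that tells the kinase mTORC1 of amino acid supply at the lysosome, rose by 0.70 (SE 0.0576, adjusted p 2.83e-09), from 0.052, -0.018 and 0.35 to 0.59, 0.87 and 1.01. Its partner Flcn (0.33), the phosphoinositide-binding Wipi2 (0.30) and the mTORC1 inhibitor Sesn3 (0.23) rose as well, and all 4 of these held in all 6 fits. Wipi1, Atg13 and Atg12 fell (-0.24, -0.16 and -0.095).

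**Figure D3:**
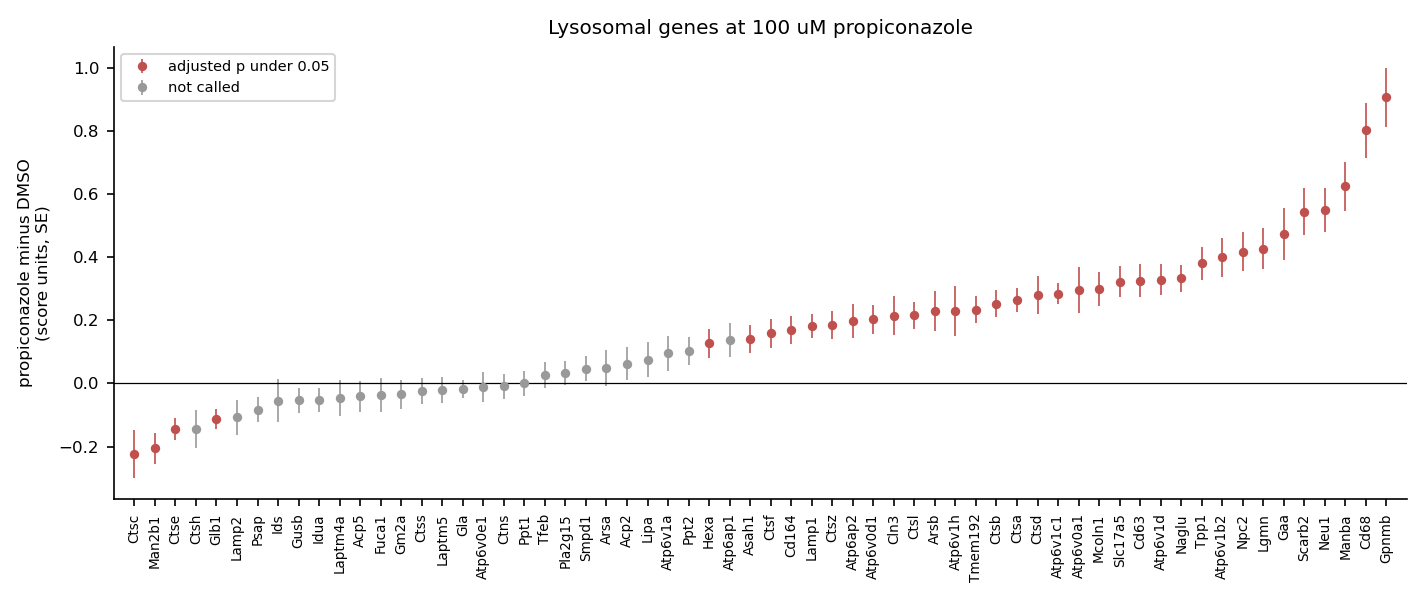
Change of the 62 tested lysosomal genes, ordered by size. Points give propiconazole minus DMSO in score units and bars the SE of the fit; red points passed the test and grey points did not. The 33 rises reach 0.91 at Gpnmb and the 4 falls reach -0.22 at Ctsc.

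Many genes of plasma proteins made by hepatocytes fell, with the largest share in the complement system. Complement proteins mark microbes and debris for removal. C4bpa and C4bpb, the chains of an inhibitor that binds C4b, fell by 1.12 and 0.83. C4bpa stood at 2.63, 2.97 and 2.67 in DMSO and at 1.92, 1.48 and 1.51 with propiconazole (SE 0.115, adjusted p 8.96e-08), and no treated array reached the DMSO range. Vitronectin, Vtn, which blocks the membrane attack complex, fell by 0.82, and C8b, a part of that complex, by 0.70. The list median was -0.322, and C4bpa, C4bpb and C8b were among the 4 of its 17 falls that held in all 6 fits. Of 26 coagulation and fibrinolysis genes 12 fell and 2 rose (median -0.135). F9, factor IX, fell by 0.86 (SE 0.0907, adjusted p 1.25e-07), from 2.86, 2.62 and 2.60 to 2.11, 1.71 and 1.69. Factor XII (F12) fell by 0.66 and plasminogen (Plg) by 0.64; Pros1, the anticoagulant protein S, and Serpina10 rose by 0.22 and 0.17. Hrg, F9 and F12 held in all 6 fits. Hepatocyte markers fell beside these genes (11 of 23, median -0.162). Their list holds plasma protein genes that other lists count as well, such as Rbp4 and Hpx, so it is not a separate measure. On the values as deposited 2 of its members fell, and 0 of its falls held in all 6 fits. What these markers contribute was not tested.

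Acute phase and lipoprotein genes split. Among 24 acute phase proteins, whose plasma levels change in inflammation, 11 fell and 3 rose. Apcs, serum amyloid P, fell by 0.67, ceruloplasmin (Cp) by 0.47, and the retinol carrier Rbp4 and Serpina3m by 0.39 each. In contrast Serpina3c, the iron-sequestering lipocalin Lcn2 (0.75) and the endotoxin receptor Cd14 (0.39) rose. Lcn2 illustrates a rise seen within codes: it stood at 1.76, 2.94 and 1.84 in DMSO and 2.75, 3.49 and 2.54 with propiconazole, the groups overlapped, and the adjusted p was 0.373 without the block. Of the acute phase genes Serpina3c held in all 6 fits. Of 25 apolipoprotein and lipoprotein genes 9 fell and 3 rose. Lcat, which esterifies cholesterol on HDL, fell by 0.87 (SE 0.122, adjusted p 5.91e-06), from 1.40, 1.54 and 1.11 to 0.88, 0.36 and 0.17, and the hepatic lipase Lipc fell by 0.59. Pon1, the paraoxonase carried on HDL, went the other way, from 1.27, 1.21 and 1.27 to 1.68, 2.37 and 2.14, a rise of 0.81 (SE 0.117). Lcat, Lipc and the probe set standing for Pon1 held in all 6 fits, while a second Pon1 probe set changed by 0.053 (limma adjusted p 0.441). Apoa2 (0.58) and Apoa1 (0.22) rose, and Apom (-0.32) and Mttp (-0.31), which loads lipid onto apolipoprotein B, fell. The rise of Apoa1 depended on the scaling: on the values as deposited it changed by 0.066 (limma adjusted p 0.959). Without the block the limma adjusted p was 0.592 for Apoa2, 0.273 for Apom and 0.181 for Mttp.

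Of 19 bile acid genes 9 fell, 0 rose and the others did not pass, with a median of -0.203. Slc27a5 activates bile acids with coenzyme A and Baat then joins them to glycine or taurine. Slc27a5 went from 0.80, 1.54 and 1.57 to -0.042, 0.18 and 0.038, a fall of 1.24 (SE 0.183, adjusted p 1.12e-05). Baat went from 1.84, 2.02 and 2.37 to 0.61, 1.06 and 0.99, a fall of 1.19 (SE 0.126, adjusted p 1.31e-07). Both conjugation genes were lower in every treated array than in any DMSO array. Slc27a2, which activates very long chain fatty acids and bile acid precursors, fell by 1.39 (SE 0.109, adjusted p 1.36e-09), from 2.53, 2.58 and 2.87 to 1.05, 1.32 and 1.46. In the synthesis branch Cyp8b1, which sets the share of cholic acid, fell within all 3 codes, from 1.94, 0.70 and 0.81 to 0.15, -0.069 and -0.036, most in Rs256. Cyp7a1, the rate-limiting enzyme, did not pass: it changed by -0.069 (SE 0.254, adjusted p 0.886), from 0.025, 0.066 and 0.28 to -0.31, 0.42 and 0.059, with 1 code higher and 2 lower. Slc27a5, Baat and Slc27a2 held in all 6 fits.

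Peroxisomal proteins outside the PPARalpha list fell in 19 of 40 cases and rose in 3 (median -0.117). Hao1, the liver glycolate oxidase, fell by 0.95 (SE 0.0912, adjusted p 3.41e-08), from 1.43, 1.75 and 1.84 to 0.39, 0.88 and 0.91. Hao2, its long chain relative, fell by 0.87 and the membrane channel Pxmp2 by 0.80. Phyh, which starts the breakdown of phytanic acid, fell by 0.75 but lost its call on the values as deposited (adjusted p 0.0947). The members that rose were Paox (0.33), a polyamine oxidase, Agps (0.17), which makes ether lipids, and Abcd4 (0.14). Hao1, Hao2 and Pxmp2 held in all 6 fits.

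Drug metabolism genes moved in opposite directions by family and member. Of 28 P450 genes of families 1 to 3, which oxidise drugs and steroids, 5 rose (17.9%) and 9 fell (32.1%), with a median of -0.0106. The share risen was near the 15.7% of all genes, and the share fallen stood against 13.7%. Cyp2c6v1 rose by 1.31 (SE 0.128, adjusted p 4.27e-08), from 1.93, 1.42 and 0.92 to 3.05, 2.76 and 2.40, and was the only P450 rise of the list to hold in all 6 fits. Cyp3a23-3a1 (0.79) and Cyp3a2 (0.68), products of a family with near-identical members, rose as well. Cyp1a2 rose by 0.82 within the codes, from 2.53, 1.01 and 1.23 to 2.999, 1.89 and 2.36. Its Rs256 arrays were high in both groups, and the call was lost without the block (adjusted p 0.518). Cyp2d3 fell by 1.01 (SE 0.149, adjusted p 1.16e-05), from 1.71, 1.33 and 1.37 to 0.60, 0.42 and 0.36. Cyp2j4 (-0.71), Cyp2a2 (-0.66) and Cyp2j3 (-0.62) fell, and so did Cyp2c11 (-0.54), the male-specific steroid hydroxylase; of these Cyp2j4 and Cyp2j3 held in all 6 fits, as did Cyp2d3. Cyp2e1, which oxidises ethanol, fell by 0.15 (adjusted p 0.0441), and its groups overlapped. AhR targets, genes of the dioxin receptor, had 4 of 7 members risen: Cyp1a2, the quinone reductase Nqo1 (0.78), Tiparp (0.40) and Cyp1b1 (0.18), of which Nqo1 and Tiparp held in all 6 fits. Nqo1 is also on the NRF2 list.

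Conjugation by sulfate, methyl and acyl groups and ester hydrolysis had 20 of 37 genes fallen and 2 risen (median -0.178). After Ces1d the largest falls were in the sulfotransferase Sult1a1 (-0.87), the glycine methyltransferase Gnmt (-0.70) and the acyl-CoA synthetase Acsm2 (-0.69). Sult1a1 stood at 3.61, 3.51 and 3.61 in DMSO and 2.60, 2.66 and 2.87 with propiconazole, with no overlap, but on the values as deposited its adjusted p was 0.129. The methyltransferase Tpmt (0.21) and Papss1 (0.17), which makes the sulfate donor, rose. Gnmt, Acsm2 and Ces1d held in all 6 fits. Glutathione S-transferases rose in 6 of 21 cases (28.6%) and fell in 3 (14.3%, near the 13.7% of all genes). Gstp1, which rose, is also on a list set aside. Gstk1 went from 1.54, 1.26 and 1.29 to 2.28, 3.04 and 2.59 and rose by 1.28 (SE 0.125), and Gstp1 by 1.22 (SE 0.180), from 1.68, 2.08 and 2.22 to 2.90, 3.21 and 3.52. Treated arrays lay above all DMSO arrays in both genes, and both held in all 6 fits; Gsta4 (0.65) and Gsto1 (0.47) rose, while the membrane-bound Mgst3 (-0.55), Mgst1 (-0.23) and Gstm7 (-0.22) fell. Glucuronosyltransferases and their sugar supply had 2 of 10 members risen (20%), Ugt2b10 (0.61) and Ugdh (0.51), and 1 fallen (10%), Ugt2b (-0.52). The shares of all genes were 15.7% and 13.7%. Of the aldehyde and alcohol dehydrogenases 7 of 24 fell (29.2%), led by Aldh1a1 (-0.63) and Aldh3a2 (-0.52). Another 4 rose (16.7%, near the share of all genes), led by Aldh4a1 (0.35). Ugt2b10, Aldh1a1 and Aldh4a1 held in all 6 fits.

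Transporters carry bile acids, drugs and conjugates into and out of the hepatocyte; 12 of 27 fell and 5 rose (median -0.167). Abcc2, the pump that exports conjugates into bile, stood at 2.44, 1.78 and 2.38 in DMSO and 3.24, 3.07 and 3.16 with propiconazole and rose by 0.95 (SE 0.150, adjusted p 2.7e-05). The multidrug pump Abcb1a (0.54) and the basolateral pump Abcc4 (0.25) rose as well, and these 3 exporters held in all 6 fits. The monocarboxylate carrier Slc16a7 rose by 0.27. Uptake carriers among the falls were Slco1a1 (-0.70) and Slco1a4 (-0.50), which take up bile acids and organic anions, the organic anion transporter Slc22a8 (-0.67) and Slc22a23 (-0.49). Of these Slco1a1 and Slc22a23 held in all 6 fits.

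Amino acid breakdown had 24 of 59 genes fallen and 7 risen (median -0.0838). Ftcd, an enzyme of histidine breakdown and folate metabolism, fell by 0.85, from 2.56, 1.91 and 1.89 to 1.55, 1.05 and 1.20. The tryptophan enzyme Kynu fell by 0.69 and Gpt2, a mitochondrial alanine aminotransferase, by 0.53. Acmsd (0.58), another tryptophan enzyme, Aass (0.51) of lysine breakdown, Aldh4a1 (0.35) of proline breakdown and Gcsh (0.23) of glycine cleavage rose, so both directions occurred within the tryptophan pathway. Hao1, Kynu, Gpt2 and Aldh4a1 held in all 6 fits. In the urea cycle, which disposes of ammonia, Otc fell by 0.53 (SE 0.110, adjusted p 0.000622), from 0.80, 1.0 and 0.95 to 0.095, 0.55 and 0.51, and Arg1 by 0.45, whereas Asl rose by 0.41 and glutamine synthetase (Glul) by 0.11. Cps1, the first enzyme, changed by -0.17 and did not pass (adjusted p 0.16). Of these urea cycle genes Otc held in all 6 fits. Without the block the limma adjusted p was 0.225 for Asl and 0.339 for Glul. On the values as deposited it was 0.203 for Asl, 0.767 for Glul and 0.44 for Arg1. Further probe sets of Glul, at 0.14 and 2.8e-06, were not called. NAD, vitamin and cofactor genes had 10 of 33 members fallen and 7 risen. Vnn1, which recycles pantothenate, fell by 1.22, from 1.21, 1.59 and 1.81 to 0.046, 0.50 and 0.41. Vnn1 is also on a list set aside. Qprt, which makes NAD from tryptophan, fell by 0.88, from 1.66, 2.13 and 2.05 to 0.66, 1.32 and 1.22, while Nampt, which salvages nicotinamide to NAD, rose by 0.34. Genes of these routes to NAD thus moved in opposite directions, and Vnn1, Qprt and Nampt held in all 6 fits, as did the vitamin E carrier Ttpa (-0.59), Ppcs (-0.54) and the vitamin transporter Slc5a6 (0.25). Gch1 (0.47), which starts biopterin synthesis, rose.

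Several genes of glucose synthesis fell. Of 15 gluconeogenesis and glycogen genes 6 fell: Fbp1, fructose bisphosphatase, fell by 0.77 (SE 0.0723, adjusted p 2.45e-08), from 2.65, 2.54 and 2.57 to 1.86, 1.90 and 1.69, the glucose 6-phosphate transporter Slc37a4 by 0.67, glycogen synthase Gys2 by 0.65 and pyruvate carboxylase Pc by 0.61. Pck1, the cytosolic rate-limiting enzyme, fell by 0.36 (adjusted p 0.00886), and its mitochondrial form Pck2 rose by 0.26, as did Gyg1 (0.32) and Pgm1 (0.21). Fbp1 and Slc37a4 held in all 6 fits. Glycolysis and fructose genes had 7 of 24 members risen and 8 fallen. Those risen most were Pfkp (0.54), Eno2 (0.49), Slc2a1 (0.48) and Aldoc (0.46), forms found mainly outside adult hepatocytes. Those fallen most were Khk (-0.42), Pfkfb1 (-0.37), Gckr (-0.37) and Pklr (-0.30), forms or regulators that adult hepatocytes use. Eno2 and Aldoc held in all 6 fits. Pfkp overlapped between groups: it stood at 1.76, 0.77 and 0.92 in DMSO and 1.85, 1.61 and 1.61 with propiconazole. Of 13 pentose phosphate and NADPH genes the transketolase Tkt (0.42) and Me1 (0.22) rose, and Nnt (-0.39), H6pd (-0.33) and Idh1 (-0.30) fell. That was 15.4% risen and 23.1% fallen, against 15.7% and 13.7% of all genes.

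Mitochondrial lists differed in their share of calls, 6.15% in the respiratory chain and 41.9% in the TCA cycle list, against 29.3% of all genes. Of 65 respiratory chain subunits on the list, which does not hold the muscle form Cox6a2 that rose, 0 rose and 4 fell, Atp5f1a (-0.20), Atp5f1b (-0.18), Atp5mc3 (-0.17) and Uqcrfs1 (-0.15), with a median of -0.0136. None of the 4 held in all 6 fits. The mitochondrial ribosome had 8 of 71 members risen (11.3%) and 3 fallen (4.23%), below the 15.7% and 13.7% of all genes. Mrpl38 (0.35) and Mrpl45 (0.32) stood at the head. The TCA cycle with pyruvate dehydrogenase had 9 of 31 fallen, led by Pc and Idh2 (-0.50), and 4 risen, led by Me2 (0.20) and Pdha1 (0.20). Of the genes named here Mrpl38, Mrpl45 and Me2 held in all 6 fits.

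Steroid, retinoid and heme genes were mixed. Of 22 steroid hormone enzymes 6 fell, among them Akr1c1 (-0.71), Akr1d1 (-0.43), which reduces the double bond of steroid ring A, and Hsd17b10 (-0.41), and 3 rose, among them Hsd17b2 (0.41), which inactivates oestradiol and testosterone. Retinoid enzymes had 9 of 24 fallen and 3 risen. Rdh7, which oxidises retinol, went from 2.18, 1.78 and 1.48 to 0.93, 0.75 and 0.54 and fell by 1.07 (SE 0.143, adjusted p 3.3e-06). Retsat (-0.77), Aldh1a1, which makes retinoic acid, and Dhrs4 (-0.55) fell too, while the retinoic acid hydroxylase Cyp26a1 (0.40) and the receptor Rarb (0.34) rose. Akr1d1, Rdh7, Retsat, Aldh1a1 and Dhrs4 held in all 6 fits. Of 18 genes of heme synthesis and electron supply 5 rose and 2 fell, and the list median of -0.000666 changes sign with other scalings. Hmox1, which degrades heme and is an NRF2 target, rose by 1.08 (SE 0.108, adjusted p 5.5e-08), from 2.49, 1.35 and 1.38 to 3.33, 2.61 and 2.52. Its Rs256 DMSO array was high, and without the block the adjusted p was 0.125. Blvrb (0.43) and Cyb5b (0.40) rose and held in all 6 fits, although another probe set of Cyb5b was called in the opposite direction. Urod (-0.23) and Fech (-0.23) fell, whereas the rate-limiting Alas1 (-0.16, adjusted p 0.469) and the P450 reductase Por (0.18, adjusted p 0.0805) did not pass. Among metal handling genes 7 of 29 fell, with the selenium carrier Selenop (-0.40), the copper importer Slc31a1 (-0.33) and the heme scavenger Hpx (-0.26), and 3 rose, with the zinc importer Slc39a4 (0.35); metallothionein Mt1 changed by -0.046 (adjusted p 0.794).

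Stress pathways moved to different degrees. The ATF4 response, which cells switch on when amino acids run short or proteins misfold, had 18 of 37 members risen and 3 fallen (median 0.157). Ddit3, the transcription factor CHOP, rose by 0.76 (SE 0.0826, adjusted p 1.92e-07), from 0.78, 0.57 and 0.45 to 1.23, 1.39 and 1.46. The secreted Gdf15 rose by 0.66; its largest step was in Rs256, from 0.14, 0.22 and 0.74 to 1.52, 0.80 and 0.76, and its adjusted p was 0.0594 without that code. Vldlr (0.59) and the cystine carrier Slc7a11 (0.54) rose. Fgf21, a hormone that ATF4 and PPARalpha both drive, fell by 1.04 (SE 0.102), from 1.60, 1.98 and 1.48 to 0.59, 0.73 and 0.62, against the direction of most of the list. Transfer RNA synthetases, many of which respond to ATF4, rose in 11 of 21 cases, with Wars1 (0.55), Sars1 (0.52), Hars1 (0.28) and Aars1 (0.20) first, and 1, Cars1 (-0.12), fell. Sars1 went from 1.68, 1.77 and 1.68 to 2.19, 2.24 and 2.24, a rise with little spread in either group. Ddit3, Fgf21, Wars1, Sars1 and Hars1 held in all 6 fits. The element TTGCATCA of ATF4, searched on both strands, lay in 1 of 17 promoters of risen members and 4 of 15 of the others, against 0.605% of promoters of genes tested, so the share was higher among members that had not risen.

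Endoplasmic reticulum stress genes moved both ways. Of 38 genes of this list 10 rose and 4 fell (median 0.0268). Sdf2l1 (0.61), the oxidase Ero1a (0.58) and the phosphatase subunit Ppp1r15a (0.42) rose, whereas Hsp90b1 (-0.38), Herpud1 (-0.28) and Ero1b (-0.39) fell. Hspa5, the main chaperone of this compartment, changed by -0.075 and did not pass (adjusted p 0.46). Heat shock chaperones had 7 of 34 risen (20.6%), led by Hspb1 (0.52), and 6 fallen (17.6%), led by Cryab (-0.47), against 15.7% and 13.7% of all genes. Among p53 targets and growth arrest genes 9 of 27 rose and 1 fell: after Sfn and Gdf15 came Gadd45b (0.45) and Tp53inp1 (0.31). Cdkn1a, the p21 inhibitor and the best known p53 target, changed by -0.0015 (SE 0.100, adjusted p 0.995), at 1.85, 1.64 and 1.44 in DMSO and 1.94, 1.53 and 1.46 with propiconazole. Sfn was thus high in all 3 treated arrays, while the groups of Cdkn1a overlapped. Of the death regulators 7 of 38 rose (18.4%), led by Casp4 (0.55), Bnip3 (0.40) and Ripk3 (0.28), and 4 fell (10.5%), shares near those of all genes (15.7% and 13.7%). Hypoxia and HIF1 targets had 8 of 23 risen and 1 fallen (median 0.129), with Ndrg1 (0.64), adrenomedullin Adm (0.49), Slc2a1 and Pfkfb3 (0.44) at the head. Sdf2l1, Hspb1, Tp53inp1, Casp4, Ripk3, Ndrg1 and Pfkfb3 held in all 6 fits.

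Growth and protein turnover genes changed by small amounts. Cell cycle and replication genes had 8 of 26 risen and 2 fallen, with Cdkn3 (0.25), Pcna (0.20), Gmnn (0.20) and Mcm4 (0.19) first, and of these Cdkn3 and Gmnn held in all 6 fits. Cytosolic ribosomal proteins had 7 of 39 risen (17.9%, near the 15.7% of all genes), 0 fallen and a median of 0.11; Rpl13a (0.23) and Rpl14 (0.21) led, and no member held in all 6 fits. Of 42 proteasome genes 9 rose, led by Psmd5 (0.33) and Psmd9 (0.28), and 5 fell, led by the activator subunit Psme2 (-0.19). Both leading proteasome genes held in all 6 fits.

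Matrix and adhesion genes fell more often than they rose, and keratin and cytoskeleton genes rose and fell in similar numbers. Of 35 matrix and TGF-beta response genes 13 fell and 3 rose (median -0.0853). After Ccn2 came Lox, which stood at 2.47, 0.70 and 0.89 in DMSO and 0.78, -0.027 and 0.012 with propiconazole and was high in Rs256 in both groups. The collagen Col18a1 (-0.51) and the membrane protease Mmp14 (-0.50) fell, and Col5a2 (0.49) and Timp3 (0.45) rose. Adhesion and junction genes had 14 of 43 fallen and 4 risen, with the tight junction protein Cldn1 (-0.63), E-cadherin Cdh1 (-0.47), F11r (-0.39) and the desmosomal Pkp2 (-0.35) falling most and Cldn3 (0.42) rising most. Ccn2, Col18a1, Cldn1 and Pkp2 held in all 6 fits. Of 54 keratin and cytoskeleton genes 9 rose (16.7%) and 10 fell (18.5%), against 15.7% and 13.7% of all genes. The list median of 0.00794 changes sign with other scalings. Lgals3, a galactose-binding lectin counted in this list, rose by 0.86 (SE 0.0962, adjusted p 2.6e-07), from 1.80, 1.93 and 2.18 to 2.34, 3.03 and 3.14, and the tubulin Tubb6 by 0.51; both held in all 6 fits. Tagln (-0.62), Tmsb4x (-0.52) and villin Vil1 (-0.48) fell. Tagln and Vim (-0.28) are also stellate cell markers, of which Reln (0.20) and Dcn (0.14) rose; the mean level of the 18 stellate markers was 0.0184 to 0.123 with propiconazole and 0.0393 to 0.148 in DMSO, and its part in the matrix falls was not tested. Krt19, a cholangiocyte keratin, changed by 0.21 (adjusted p 0.237).

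Immune genes were mixed. Interferon response and antigen presentation had 12 of 46 members fallen (26.1%) and 7 risen (15.2%), against 13.7% and 15.7% of all genes (median -0.103). Without the block 2 members fell, and 0 of the falls held in all 6 fits. RT1-S3 (-0.64), Mx2 (-0.52), Usp18 (-0.48) and Ifi27 (-0.46) fell most, and the transcription factor Stat2 (0.32) rose most. Mx2 stood at 1.39, 0.16 and 0.15 in DMSO and 0.20, -0.011 and -0.053 with propiconazole, so its fall came largely from the Rs256 pair. Chemokine, cytokine and NF-kB genes had 8 of 38 risen (21.1%) and 6 fallen (15.8%), against 15.7% and 13.7% of all genes, and 0 of them held in all 6 fits. Defb1, an antimicrobial peptide, rose by 0.91 (SE 0.207), from 0.98, 0.30 and 0.12 to 1.64, 1.22 and 1.26, and Il1r2, a decoy receptor for interleukin 1, by 0.68 (SE 0.166), from 0.63, 1.05 and 1.06 to 0.96, 1.91 and 1.91. Il1r2 overlapped between groups and Defb1 did not. Cxcl16 (-0.47) and the NF-kB inhibitor Tnfaip3 (-0.47) fell. Of the immune genes named here Stat2 held in all 6 fits. Immediate early genes had 2 of 27 risen (7.41%) and 3 fallen (11.1%), both below the shares of all genes. Maff (0.48) and Klf4 (0.40) rose, and Klf10 (-0.48), Dusp1 (-0.27) and Ccn1 (-0.23) fell. Vesicle traffic genes had 4 of 41 risen (9.76%) and 8 fallen (19.5%), with Sec22b (-0.41) and Kdelr3 (-0.37) falling most.

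Regulators of liver identity fell in part. Of 28 liver transcription factors 10 fell and 3 rose (median -0.0776). Creb3l3, a membrane-bound factor of fasting and lipid metabolism that PPARalpha also drives, fell by 1.36 (SE 0.168, adjusted p 1.1e-06), from 1.77, 2.18 and 2.38 to 1.17, 0.35 and 0.72. Onecut1, also called HNF6, fell by 0.82 (SE 0.0930, adjusted p 3.38e-07), from 1.05, 1.30 and 0.87 to 0.27, 0.27 and 0.22, a level that was nearly the same in the 3 treated arrays. Its relative Onecut2 (-0.45) and Nfia (-0.45) fell, and Stat5b (0.39), which carries the growth hormone signal, Cebpb (0.21) and Foxa2 (0.13) rose. Creb3l3, Onecut1, Onecut2, Nfia and Stat5b held in all 6 fits. Nuclear receptors changed by less: 6 of 32 fell (18.8%) and 5 rose (15.6%), against 13.7% and 15.7% of all genes. Falls were led by Rxrg (-0.28), Nr2f2 (-0.27), CAR (Nr1i3, -0.26) and FXR (Nr1h4, -0.24), and rises by Rarb and Ppard (0.21). Of these receptors Nr2f2 held in all 6 fits. In the growth hormone and IGF system 6 of 28 rose (21.4%) and 6 fell (21.4%), against 15.7% and 13.7% of all genes. Igf1, the main hormone the liver releases under growth hormone, fell by 0.67 (SE 0.0938, adjusted p 6.19e-06), from 2.68, 2.57 and 2.47 to 1.91, 1.79 and 2.01, but its adjusted p was 0.102 on the values as deposited. The receptor Ghr fell by 0.50. The binding protein Igfbp2 rose by 0.60, from 0.16, 0.11 and 0.058 to 0.61, 0.88 and 0.65, and Igfbp4 by 0.53; Jak2, the kinase of the receptor, rose by 0.31. Igfbp2 and Jak2 held in all 6 fits. Among 18 clock genes Bhlhe40 (0.20) and Bmal1 (0.18) rose and Dbp (-0.21), Bhlhe41 (-0.18) and Npas2 (-0.17) fell.

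Fatty acid and triglyceride synthesis genes rose in 15 of 35 cases and fell in 2 (median 0.11). After Scd2 came Pnpla3 (0.79), a lipid droplet hydrolase, the desaturase Fads1 (0.71) and the acetyl-CoA synthetase Acss2 (0.58), while Lpin1 (-0.30) and the citrate lyase Acly (-0.27) fell. Lipid droplet and lipolysis genes had 10 of 25 fallen and 3 risen (median -0.161): the droplet protein Cidec (-0.67) and the esterase Aadac (-0.64) fell beside Ces1d, and Plin3 (0.31) and Abhd5 (0.22) rose beside Fabp5. Phospholipid genes had 12 of 35 risen, led by Pla2g12a (0.62), and 9 fallen, led by Gpd1 (-0.46). Sphingolipid genes had 7 of 24 risen, led by Sgpl1 (0.21), and 5 fallen, led by Smpd3 (-0.26). Of 41 one-carbon, methionine and glutathione genes 14 rose and 8 fell: Ggt1 (0.64), which breaks down glutathione and is counted among the cholangiocyte markers, Gsr (0.58), Gclm (0.46) and the spermidine synthase Srm (0.42) rose, and Gpx3 (-0.48) and Cbs (-0.42) fell beside Ftcd and Gnmt. Pnpla3, Fads1, Cidec, Pla2g12a, Sgpl1, Ggt1, Gclm and Srm held in all 6 fits.

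Probe sets without a gene name in the platform annotation made up 9780 of the array, and 3406 of them (34.8%) were bright enough to be tested, against 68.3% of probe sets that name a single gene. Among those tested 746 were called (21.9%), fewer than the 28.2% of single-gene probe sets. They fell more than they rose: 534 (15.7%) fell and 212 (6.22%) rose, against 12.8% and 15.4% of single-gene probe sets. The strongest was 1370310_at, which stood at 2.90, 3.16 and 3.27 in DMSO and at 0.29, 0.57 and 0.66 with propiconazole. It fell by 2.60 (SE 0.115, adjusted p 7.36e-14), more than any named gene tested, and its differences within the 3 codes were -2.607, -2.593 and -2.611. Probe set 1367856_at rose by 1.20 (SE 0.0968, adjusted p 2.11e-09), from 1.61, 1.14 and 1.26 to 2.79, 2.47 and 2.35. Probe set 1388166_at rose by 1.15 (SE 0.120), and 1368718_at, 1396304_at and 1398600_at by 0.86, 0.84 and 0.82. The next largest falls were 1392569_at at -0.97 (SE 0.112), 1391476_at at -0.77, 1395255_at at -0.74 and 1392245_at at -0.72. All 10 were separate between groups, and 8 of them held in all 6 fits; without the block 1388166_at had an adjusted p of 0.0831 and 1391476_at of 0.0754. These probe sets carry no gene name here, so the falls cannot be assigned to a function. Where a gene had several probe sets, 490 genes had at least 2 called, and in 70 of these they were called in opposite directions, Cyb5b among them. Some named genes had further probe sets that were not called: Stat2 (-0.073), Dhrs4 (0.051), Gpt2 (-0.026), Pfkfb3 (0.049) and Cars1 (0.0997, 0.070 and 0.050) among them. For others, such as Onecut2 and Timp3, every probe set was called in the direction given.

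**Figure D4:**
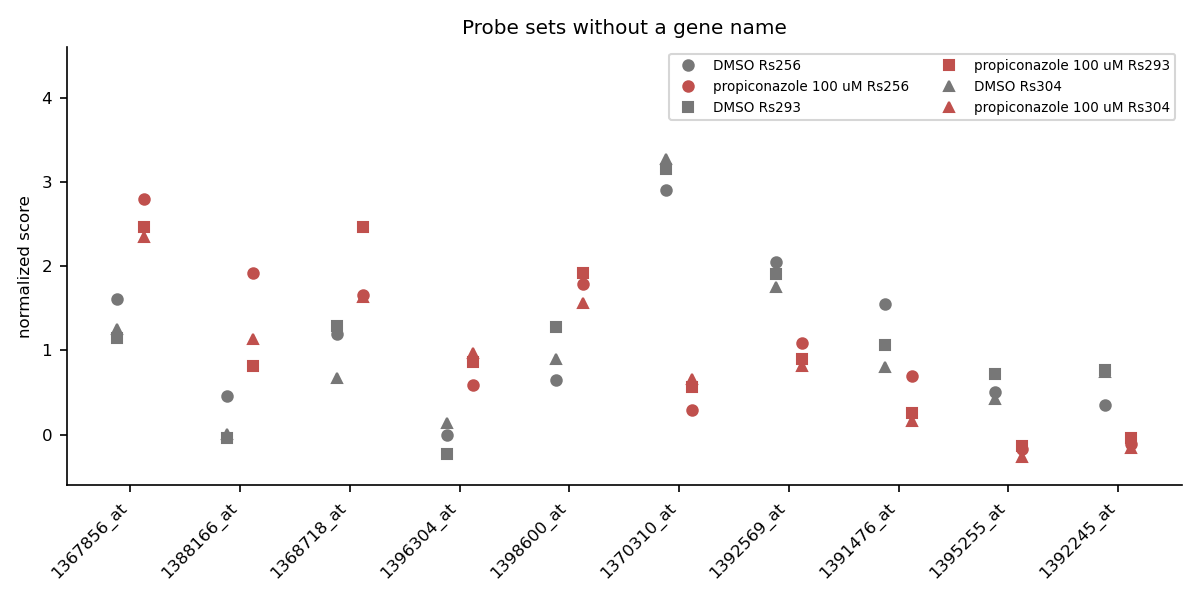
Normalized scores of the 10 unnamed probe sets with the largest changes, in DMSO (grey) and at 100 uM propiconazole (red), with the marker shape giving the Rs code. The 5 on the left rose and the 5 on the right fell; 1370310_at fell from about 3 to below 1 in every code.

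Lower doses and the other triazoles place these changes. Each comparison with DMSO uses the same 3 DMSO arrays, so values are set side by side, and the tests of difference were made between treatments directly. Against DMSO limma called 275 genes at 30 uM (2.62%) and 2 at 10 uM (0.0191%). Between 100 and 30 uM propiconazole 2009 genes differed (19.2%), 1015 higher (9.68%) and 994 lower (9.48%) at 100 uM, and 492 differed without the block. The Rs293 array of the 30 uM group had the widest spread of the series, and without it the count was 1648. On the values as deposited 1301 differed, 244 higher and 1057 lower, so the balance of directions changed with the scaling. Sfn changed by 0.060 at 10 uM, 0.15 at 30 uM and 1.35 at 100 uM, and its level at 100 uM lay above that at 30 uM by 1.20 (adjusted p 3.35e-11). Gstp1 changed by -0.014, -0.14 and 1.22, and Hrg by -0.12, -0.13 and -1.34. These 3 genes lay within 0.15 of DMSO up to 30 uM and moved at 100 uM, with differences between 100 and 30 uM of 1.36 for Gstp1 and -1.21 for Hrg (adjusted p 8.8e-06 and 4.08e-07). Creb3l3 showed the same order, with -0.080, -0.17 and -1.36. Fabp5 changed by 0.33, 0.40 and 1.47, Serpina3c by 0.039, 0.19 and 1.18, and Akr1b8, an aldo-keto reductase, by -0.026, -0.12 and 0.89. Scd2 was different: it changed by 0.77, 1.50 and 2.01, and its step from 30 to 100 uM of 0.51 did not pass (SE 0.185, adjusted p 0.0551). It was not the only such gene. In the limma fit without the wide Rs293 array, Cyp2c6v1 changed by 1.46 at 30 uM (adjusted p 6.29e-06) and Ces1d by -1.14 (adjusted p 0.0178). Their steps to 100 uM, -0.14 and -0.59, did not pass (adjusted p 0.581 and 0.0883). The same held for Abcc2, Cyp3a23-3a1 and Ggt1. In the lysosomal list 6 of 62 members rose and 0 fell at 30 uM, and in complement 0 of 23 rose and 2 fell. Of all genes tested 1.75% rose and 0.867% fell at that dose. These counts include the wide Rs293 array.

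At the same dose of 100 uM, propiconazole differed from myclobutanil in 743 genes (7.08%), 405 higher (3.86%) and 338 lower (3.22%), and from triadimefon in 485 (4.62%), 267 higher (2.55%) and 218 lower (2.08%). Without the block these counts were 80 and 51. On the values as deposited these were 91 (81 higher, 10 lower) and 69 (57 higher, 12 lower), so counts and balance both changed with the scaling. Sfn was higher with propiconazole than with myclobutanil by 1.11 (SE 0.0702, adjusted p 1.82e-10) and than with triadimefon by 0.91 (adjusted p 8.19e-09). Serpina3c was higher by 0.85 and 0.73, Sdcbp2 by 0.82 and 0.58, and Il1r2 by 0.60 and 0.70, each passing both tests. Gstp1 was higher than with myclobutanil by 1.21 (adjusted p 0.00023), whereas its difference of 0.52 from triadimefon did not pass (SE 0.180, adjusted p 0.106). Hrg was lower with propiconazole by -0.75 against myclobutanil and -0.53 against triadimefon (adjusted p 0.00053 and 0.0137). Rarres2, the secreted chemerin, changed by -0.98 against DMSO with propiconazole, -0.45 with myclobutanil and -0.23 with triadimefon, and the direct differences were -0.54 and -0.76 (adjusted p 0.000735 and 2.05e-05). Cd68 was higher with propiconazole by 0.65 and 0.41 (adjusted p 5.75e-05 and 0.00573). For Scd2 no difference passed: propiconazole minus myclobutanil was 0.26 and minus triadimefon -0.070 (SE 0.185, adjusted p 0.452 and 0.905). Slco1a4 fell with propiconazole (-0.50) and stood at 0.21 with myclobutanil, a difference of -0.71 (adjusted p 0.0102). List medians against DMSO follow in the order propiconazole, myclobutanil, triadimefon. They were -0.203, -0.158 and -0.187 for bile acid genes and 0.11, 0.134 and 0.129 for fatty acid and triglyceride synthesis. For complement they were -0.322, -0.152 and -0.156, and for the lysosome 0.15, 0.081 and 0.0612. These medians share the 3 DMSO arrays and were not tested against each other.

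**Figure D5:**
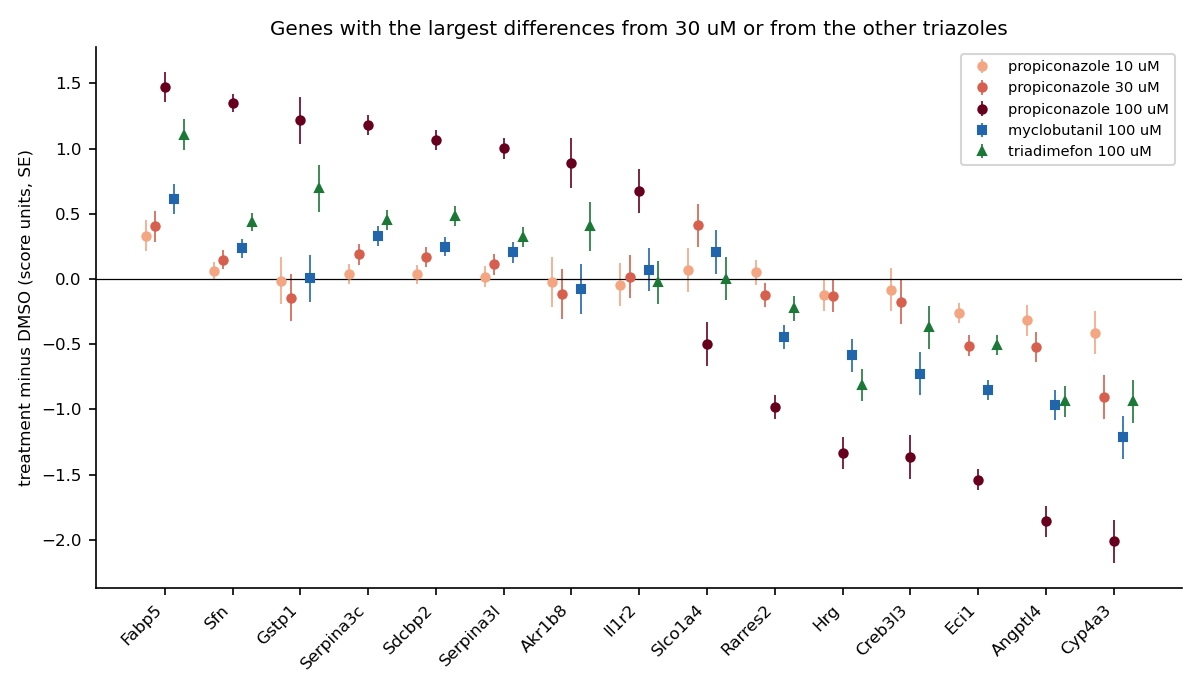
Genes with the largest differences between 100 uM propiconazole and 30 uM propiconazole, 100 uM myclobutanil or 100 uM triadimefon. The y axis gives each treatment minus DMSO in score units with the SE of the fit, and all treatments share the same 3 DMSO arrays. Propiconazole at 100 uM (dark red) stands farthest from 0 in every gene shown, from 1.47 for Fabp5 to -2.01 for Cyp4a3.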

How the data were processed

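RNA of primary rat hepatocytes was hybridized to Affymetrix rat expression arrays. The authors deposited a value table whose unit is a score on a log-like scale. Its base, probe summary, background correction and normalization are not given in the sources used here. Assuming the manufacturer's usual amounts, each natural-log step in the concentration of control transcripts was worth 0.542 to 1.09 units (median 0.659), which is too steep for a base of 10. A change in score units is therefore not given as a fold. The number of arrays limits the precision.

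Arrays were quantile normalized over probe sets other than the 57 controls. The platform annotation named 1 gene for 20826 of 31099 probe sets, several for 436 and none for 9780, and 20758 matched the reference gene table. The probe set with the highest mean stood for its gene. A gene was tested if above the array median in at least 2 of 35 arrays (10490 of 14217). limma 3.58.1 in R 4.3.3 (lmFit, eBayes) was fitted over all 35 arrays with 1 mean per group and the Rs code as a fixed block. Tests were two-sided with Benjamini-Hochberg adjustment over all features and a threshold of 0.05. The script was tested on simulated data.

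The Rs code pairs the samples by the data: after group means were removed, the propiconazole and DMSO arrays of a code correlated at 0.509, 0.277 and 0.527 across genes, and those of different codes at no more than 0.0874. The members and gene lists were chosen with earlier results of these data known. Genes named are the 12 largest rises and falls that moved the same way in all 3 codes outside the lists set aside, up to 4 per list and direction, the 5 largest unnamed probe sets and contrast differences each way, and a few defining genes whatever their change; other genes named, such as the proton pump subunits, those with printed promoters and the few values given by dose or compound, were chosen after their values were seen. Alternatives were no block, the values as deposited, median centring, other filters and features, and leaving out codes or arrays. Promoters came from RefSeq (GRCr8).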

Additional observations from a re-analysis of the deposited data

How the results depend on the processing

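No called gene named here changed direction without the block, on other scalings or without a code; with each probe set as a feature, a further probe set of Cyb5b was called in the opposite direction. The count of genes changed by propiconazole against DMSO was 3078 with the replicate block and 1255 without it, all of them among the 3078. It was 1401 on the values as deposited (1399 of them shared), 1507 after median centring (1494 shared) and 1433 when the 2 groups were fitted alone (1397 shared), and no shared gene turned. Leaving out a code or an array gave 1534 (without Rs304) to 3137. Other filters and features gave 2923 to 4052. Unnamed probe sets numbered 746, against 306 without the block, 474 as deposited and 306 (without Rs304) to 639 without a code. The differences from 30 uM numbered 2009, against 492 without the block, 1301 as deposited and 1648 without the widest array, a choice made after seeing the data. Those from myclobutanil numbered 743, against 80 without the block and 91 as deposited, and those from triadimefon 485, against 51 and 69. Of 360 named genes called, 120 passed in all 6 fits; of the 368 named, 170 lost their call without the block, 160 as deposited, 152 after median centring and 108, 57 and 54 without Rs304, Rs256 and Rs293. The cause was not tested. Values near the array median, where many unnamed probe sets lie, limit what these arrays can show.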
